A study of Mus musculus with 12 samples.

Results

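The 34 genes described here are the adipocyte and lipid storage genes: those that make, secrete or handle the contents of fat cells, from the transcription factor Pparg and the adipocyte hormones Adipoq and Lep to enzymes of triglyceride synthesis and breakdown. They were taken from a list of gene names and found by symbol among the 23575 genes of the RNA-seq tables. All 34 were found, and 32 had enough counts to be tested. The cells were primary chondrocytes of C57BL/6J mice aged 5 to 6 days, taken from the cartilage of femoral heads and tibial plateaus, expanded as monolayers in DMEM/F12 with 10% FBS and then kept as pellets in medium with ascorbic acid and ITS, a supplement that contains insulin. Pellets were harvested at Week 1 (day 7) or Week 3 (day 21), with 3 RNA-seq and 3 ERRBS libraries per week. ERRBS, enhanced reduced representation bisulfite sequencing, measures CpG methylation in the CpG-rich fraction of the genome. Both weeks shared strain, age, medium and supplements, and the pellet culture is the series' in vitro model of chondrocyte hypertrophy. The labels do not say whether the replicates were separate isolations, whether animals were pooled, or whether RNA and DNA of one number came from one culture, so each p-value reflects only the scatter among these libraries, which may be technical.

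Fat cells form when PPAR gamma, encoded by Pparg, and C/EBP alpha, encoded by Cebpa, switch on each other and a shared set of target genes. Those targets coat the lipid droplet, bring in fatty acids, join them to glycerol as triglyceride and release them again, and some encode hormones that report on fat stores. Chondrocytes and fat cells can both arise from mesenchymal progenitors, and chondrocytes hold small lipid droplets of their own, so several of the enzymes are not specific to fat.

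The libraries held 14361722 to 19774661 gene counts. Expression is given as CPM, the count scaled to a common library total after TMM normalisation. Cartilage and hypertrophy markers were present in every library: the summed level of 7 chondrocyte markers was 12700 to 25200 CPM at Week 1, lowest in replicate 2, and 26900 to 29500 CPM at Week 3, and all 6 hypertrophy markers rose. The summed level of 7 fat cell markers, all of them among the 34 genes, was 36.0, 166 and 54.5 CPM in replicates 1, 2 and 3 of Week 1 and 16.9, 96.5 and 29.5 CPM in those of Week 3. Replicate 2 was the highest in both weeks, at 3.67 and 4.15 times the mean of the other libraries of its week.

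Promoter sequence and methylation could be set beside expression for part of the list. The upstream 250 bases of Lep (RefSeq, GRCm38.p6, plus strand, chr6:29059971-29060220) are shown because all 7 CpGs measured near the Lep start lie in them; those CpGs are in capitals, and the run ends at the base before the start. Plin1 (minus strand, chr7:79732777-79733026) is shown as the other member promoter with a C/EBP-type match; its 2 matches are in capitals.
Lep: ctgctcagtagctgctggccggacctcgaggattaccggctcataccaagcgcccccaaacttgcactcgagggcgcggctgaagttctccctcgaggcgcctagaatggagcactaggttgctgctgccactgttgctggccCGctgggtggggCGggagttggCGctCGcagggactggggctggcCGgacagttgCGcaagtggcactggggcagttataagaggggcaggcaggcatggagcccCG
Plin1: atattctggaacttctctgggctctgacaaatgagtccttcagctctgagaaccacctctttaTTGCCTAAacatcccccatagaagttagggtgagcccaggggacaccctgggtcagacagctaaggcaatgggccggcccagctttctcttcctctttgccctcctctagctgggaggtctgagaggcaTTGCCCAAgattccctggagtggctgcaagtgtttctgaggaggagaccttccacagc
The C/EBP-type motif was searched as TTGCNNAA on both strands from 250 bases before to 50 after the start. It occurred in 2 of the 26 member promoters in the RefSeq promoter table, those of Lep and Plin1, and in 10.8% of all 27025 promoters. In Lep it was TTGCGCAA, beginning 55 bases before the start, with a measured CpG in its middle, and in Plin1 it began 187 and 58 bases before the start. The direct repeat read by PPAR gamma with its RXR partner, a pair of AGGTCA half-sites with 1 base between, was found in 0 of 26 member promoters and 0.0481% of all promoters, and with AGGNCA as the half-site in 0 of 26 and 0.396%. The motif CACGTG, an E-box, was found in Klf15, Lipe and Plin2 and in 7.22% of all promoters. No match of one motif overlapped a match of another. For 25 of the 26 members the window lay at the start of the transcript counted, and for Pparg at another start. These matches describe the letters of the windows only.

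Of the 32 tested genes, 3 rose and 7 fell from Week 1 to Week 3 in edgeR's quasi-likelihood test (adjusted p under 0.05), against 19.7% of all 14323 tested genes that rose and 17.8% that fell. The share called was 31.2% for the list and 37.4% for all genes. The genes that rose were Acly, Me1 and Aqp7, and those that fell were Lipe, Dgat1, Dgat2, Mlxipl, Acsl1, Cebpb and Retn. The median log2 change of the list was -0.25, beside -0.01 for all genes. Replicate numbers were taken to pair the libraries across weeks, which the labels do not state. Below, pairs are same-numbered libraries of both weeks, and the paired fit is the fit with the number as a block. With the block 6 rose and 14 fell (62.5% called, against 44.0% of all genes, 22.8% higher and 21.3% lower). All 10 genes called without the block were called with it, and 10 were called with the block only (31.2%, against 6.69% of all genes). The libraries of the weeks did not overlap for 10 of the 32 genes (31.2%, against 51.4% of all genes). Without replicate 2 of both weeks and with no block, 3 rose and 11 fell of 30 tested (42.2% of all 14326 genes called, 22.0% higher and 20.2% lower). The 10 genes called with the block only were Adipoq, Cfd, Fabp4, Cd36, Plin2, Cidec and Cebpa, lower at Week 3, and Plin4, Scd1 and Car3, higher.

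**Figure D1:**
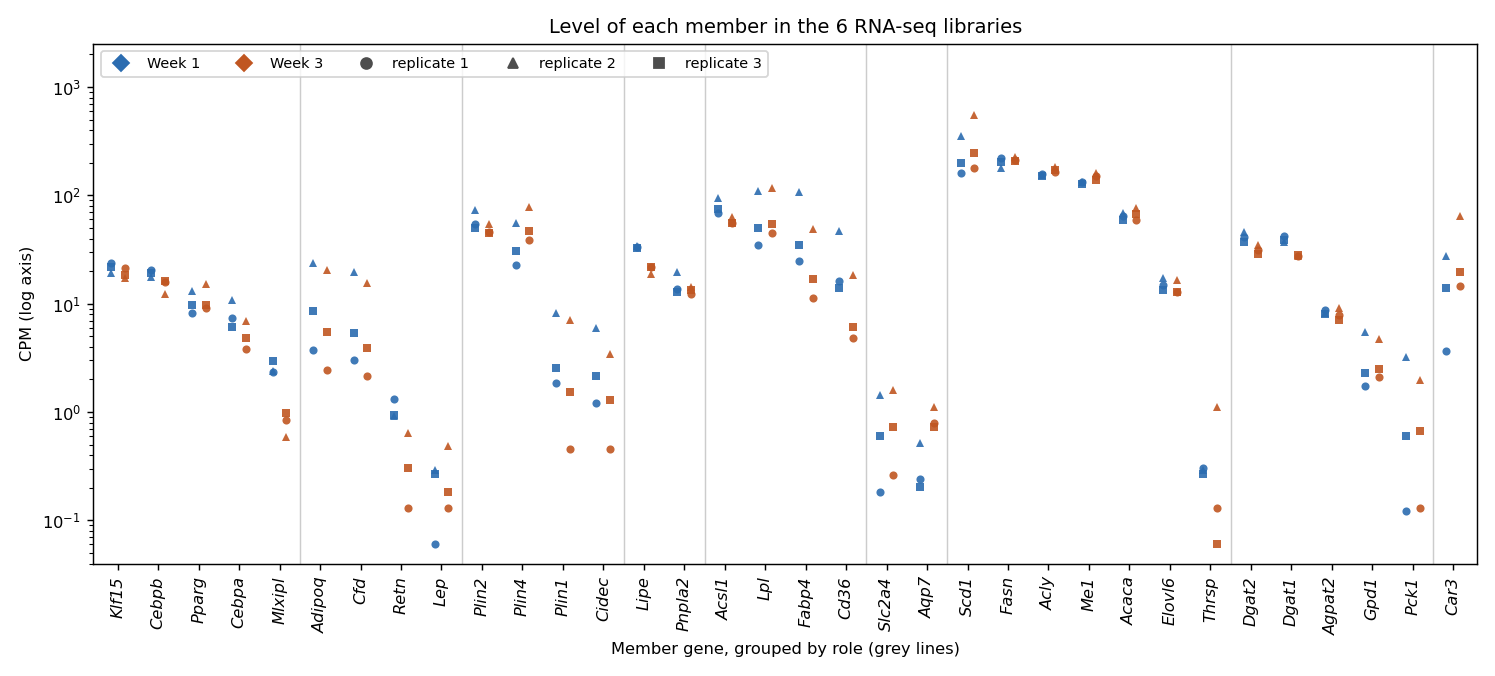
CPM of each of the 34 genes (log axis) in the 6 RNA-seq libraries, by week (colour) and replicate (symbol), with grey lines between roles. The triangles of replicate 2 stand above both other libraries in both weeks for 22 of the 32 tested genes, and those of Lipe, Dgat1 and Fasn lie close to them.

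That replicate 2 of both weeks stood highest for these genes was known before the shares below were counted. These shares, and those of the genes called with the block and with the block only, describe the pattern and do not test it. Replicate 2 was the highest library in both weeks for 22 of 32 genes (68.8%, against 19.9% of all genes). It was at least 2-fold the mean of replicates 1 and 3 in both weeks for 11 of 32 genes (34.4%, against 0.391% of all genes): Adipoq, Cfd, Fabp4, Plin1, Cidec, Lpl, Cd36, Gpd1, Car3, Slc2a4 and Pck1. Just under that limit were Scd1, at 1.97-fold in Week 1 and 2.60-fold in Week 3, and Plin4, at 2.05-fold and 1.83-fold. Pck1, which makes the precursor of glycerol phosphate when glucose is short, had the highest Week 1 ratio (8.92-fold) and Plin1 the highest Week 3 ratio (7.18-fold). Both ratios rest on low counts: 2, 56 and 9 for Pck1 at Week 1 and 7, 133 and 25 for Plin1 at Week 3. Slc2a4 was low too, with 3, 25 and 9 counts at Week 1 and 4, 30 and 12 at Week 3. Replicate 1 was also the lowest library in both weeks for 14 of the 22 genes, or 43.8% of the 32, against 5.57% of all genes. The median standard error of the list's log2 changes was 0.27 without the block and 0.10 with it, beside 0.10 and 0.09 for all genes.

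**Figure D2:**
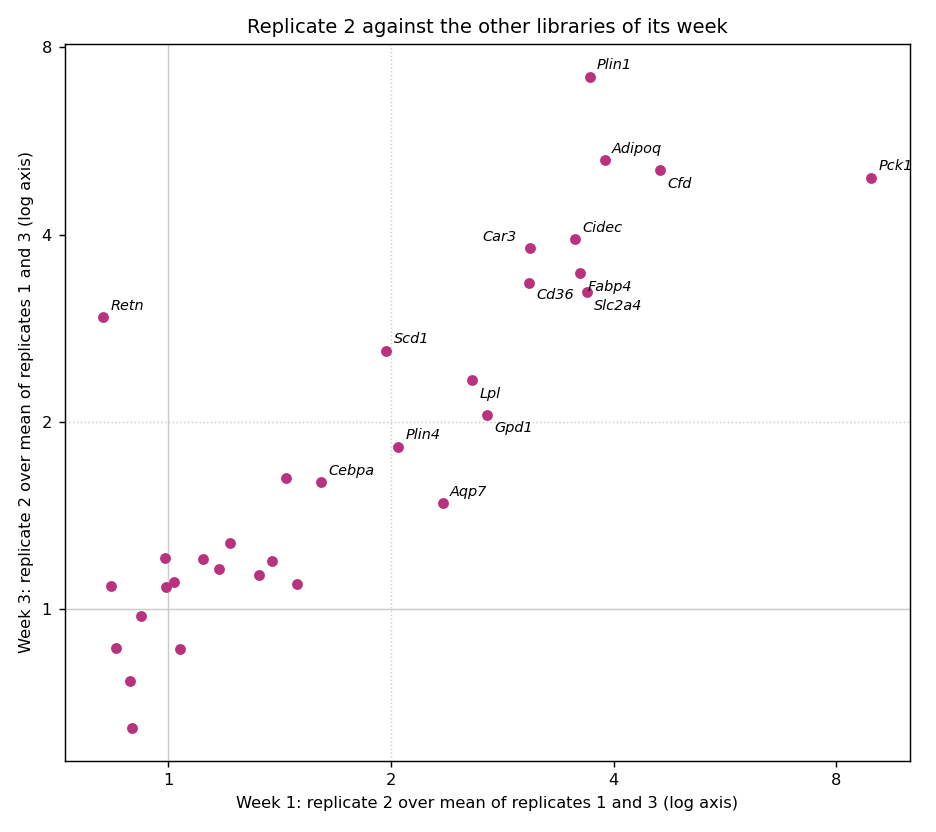
Replicate 2 divided by the mean of replicates 1 and 3 (log axes) for the 32 tested genes, Week 1 on the x axis and Week 3 on the y axis, with dotted lines at 2-fold. Upper right of both dotted lines are the 11 genes that were at least 2-fold higher in replicate 2 in both weeks; Retn was below 1 in Week 1 and 2.95 in Week 3.

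Markers of other cells were summed in the same libraries. The sum over 9 macrophage markers, of 10 sought, was 116, 109 and 51.7 CPM in replicates 1, 2 and 3 of Week 1. It was 63.5, 36.6 and 16.8 CPM in those of Week 3, so it was not highest in replicate 2 of either week. Replicate 2 stood at 1.3 and 0.911 times the mean of the other libraries of its week. The sum was carried by Lyz2 and Ctss. Ctss, Cd14, Tyrobp and Itgam were highest in replicate 2 of Week 1, and the other markers in replicate 1. At Week 3 only Ptprc was highest in replicate 2. Of the 9, 5 fell and 0 rose (17.8% of all genes fell); 7 fell with the block, 2 on replicates 1 and 3, 1 when Week 1 replicate 1 was omitted, and 3 when replicate 2 of either week was. The sum over 10 endothelial markers was 12.3, 13.6 and 10.6 CPM at Week 1 and 9.35, 8.88 and 7.69 CPM at Week 3, and 7 of them, among them Pecam1, Cdh5 and Kdr, were below 1 CPM in every library. The sum over 8 skeletal muscle markers was 57.6 to 75.7 CPM at Week 1 and 26.8 to 29.0 CPM at Week 3, carried by Ttn at 18.9 to 67.6 CPM, while Acta1, Myh1, Myh4, Ckm and Myog were below 1 CPM in every library. Of 5 markers of adipogenic marrow stroma 3 rose and 0 fell (19.7% of all genes rose), with sums of 130, 137 and 151 CPM at Week 1 and 189, 229 and 205 CPM at Week 3, carried by Cxcl12 and Foxc1. Within that list Kitl was highest in replicate 2 of both weeks, at 11.6, 23.4 and 15.2 CPM and then 13.3, 30.0 and 14.3 CPM, as was Ebf3, at 9.37, 11.7 and 9.79 CPM and then 6.74, 11.3 and 8.72 CPM. The sum over 7 fibroblast markers was 9780, 6900 and 8550 CPM at Week 1, lowest in replicate 2, and 30200, 34500 and 32200 CPM at Week 3, carried by the collagen genes Col1a1 and Col1a2, and 4 of the 6 tested rose. Its members Dpt (3.14, 5.46 and 3.98 CPM, then 0.981, 4.44 and 1.22 CPM) and Pdgfra (223, 308 and 224 CPM, then 267, 351 and 274 CPM) were highest in replicate 2 of both weeks. Kitl, Ebf3, Dpt and Pdgfra were singled out after their values had been seen. Other genes of these lists went the other way. Foxc1, Dcn and Lum were lowest in replicate 2 of both weeks, and Lepr was lowest there at Week 3. Cxcl12, Col1a1 and Col1a2 were lowest in replicate 2 at Week 1 and highest in it at Week 3. Pi16 was below 1 CPM in every library. The part of these cells in the changes below was not tested. In bulk RNA, fewer cells of a type and less RNA per cell cannot be told apart.

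Among the transcription factors, Mlxipl and Cebpb fell, Cebpa fell in the paired fit, and Pparg and Klf15 were not called. Pparg was at 8.22, 13.0 and 9.79 CPM in replicates 1, 2 and 3 of Week 1 and 9.22, 15.4 and 9.64 CPM in those of Week 3, a log2 change of 0.15 ± 0.24 (SE, n = 3 per week, adjusted p = 0.66), and the weeks overlapped. Cebpa was at 7.44, 10.9 and 6.14 CPM and then 3.79, 6.96 and 4.88 CPM, lower in each pair and overlapping between weeks (log2 change -0.64 ± 0.27, adjusted p = 0.095, and -0.65 ± 0.14, adjusted p = 0.0047 with the block). Cebpb, which acts early in adipogenesis and also in inflammation and stress, was at 20.7, 17.7 and 19.2 CPM and then 16.0, 12.4 and 16.2 CPM. Its Week 3 libraries all lay below those of Week 1 (log2 change -0.37 ± 0.12, adjusted p = 0.032). Leaving out Week 1 replicate 1 ended the Cebpb call (adjusted p = 0.112), as did leaving out Week 1 replicate 3 (0.0879) and Week 3 replicate 2 (0.0963).

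Mlxipl fell in each pair. It encodes ChREBP, which senses glucose metabolites and switches on fatty acid synthesis genes. Its level was 2.36, 2.38 and 2.97 CPM at Week 1 and 0.850, 0.589 and 0.976 CPM at Week 3, 36.1%, 24.7% and 32.9% of Week 1 in the 3 pairs. The weeks were well apart (log2 change -1.67 ± 0.26, adjusted p = 0.00091), and it was called in all 6 fits that left out 1 library. Its counts were low, at 39, 41 and 44 at Week 1 and 13, 11 and 16 at Week 3. Klf15, a factor induced by glucocorticoids that acts on amino acid and lipid metabolism, was at 19.3 to 23.6 CPM and 17.4 to 21.6 CPM (log2 change -0.17 ± 0.11, adjusted p = 0.25).

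Of the secreted adipocyte proteins Retn fell, and Adipoq and Cfd fell in the paired fit. Adipoq, adiponectin, was at 3.75, 24.0 and 8.57 CPM in replicates 1, 2 and 3 of Week 1 and 2.42, 20.7 and 5.43 CPM in those of Week 3. Replicate 2 of either week was above both other libraries of the other week, so the weeks overlapped widely. Within pairs, Week 3 stood at 64.6%, 86.2% and 63.3% of Week 1 (log2 change -0.32 ± 1.05, adjusted p = 0.84, and -0.41 ± 0.12, adjusted p = 0.023 with the block). Cfd, adipsin, a protease of the complement system made by fat cells, followed the same order, at 3.02, 19.4 and 5.40 CPM and then 2.16, 15.4 and 3.90 CPM. It stood at 71.4%, 79.3% and 72.3% of Week 1 in the pairs (log2 change -0.35 ± 1.06, adjusted p = 0.82, and -0.39 ± 0.12, adjusted p = 0.022 with the block). An alternative added after the data had been seen kept the block but left out replicate 2 of both weeks. In it the adjusted p of Cfd was 0.0708 and that of Adipoq 0.00474. That fit has few residual degrees of freedom, so its p-values rest largely on spread borrowed from other genes. On the same libraries without the block neither gene was called (adjusted p = 0.304 for Cfd and 0.603 for Adipoq).

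Retn and Lep, the remaining hormones, had few reads. Retn, resistin, had 22, 16 and 14 counts at Week 1 and 2, 12 and 5 at Week 3, so all Week 3 libraries lay below Week 1 (log2 change -1.50 ± 0.45, adjusted p = 0.026). Unlike Adipoq and Cfd it was not highest in replicate 2 at Week 1. Leaving out Week 1 replicate 1 ended the call (adjusted p = 0.0972), as did leaving out Week 1 replicate 3 (0.0577), Week 3 replicate 1 (0.0782) and Week 3 replicate 3 (0.0803). Lep, leptin, had 1, 5 and 4 counts at Week 1 and 2, 9 and 3 at Week 3, and was too low to test.

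**Figure D3:**
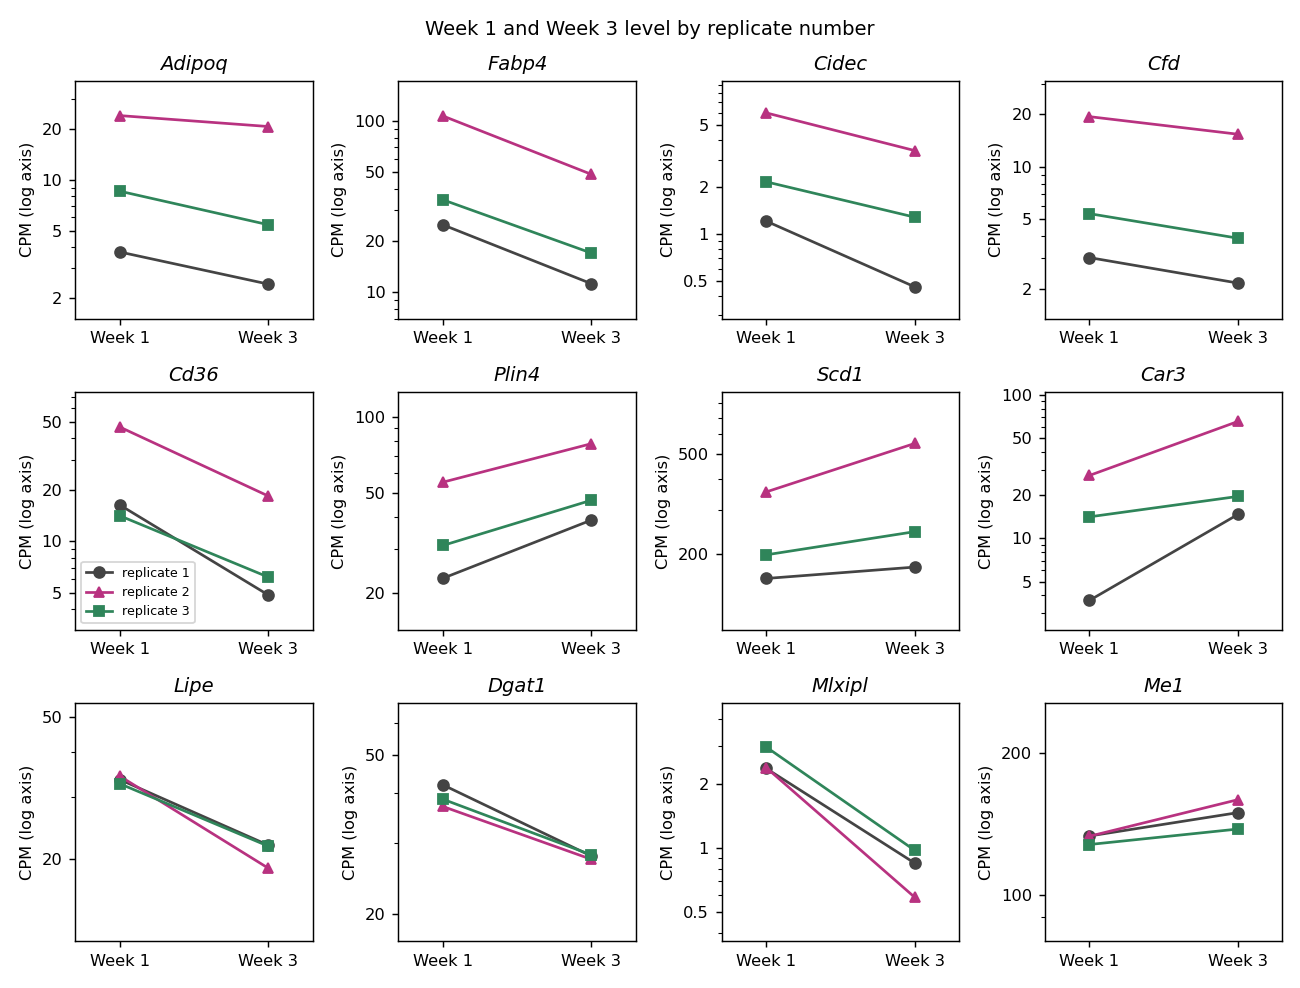
CPM (log axis) at Week 1 and Week 3 for 12 of the genes, with a line for each replicate number. For Adipoq, Fabp4, Cidec, Cfd and Cd36 the lines fall nearly in parallel with replicate 2 on top, and for Plin4, Scd1 and Car3 they rise with replicate 2 on top. For Lipe, Dgat1 and Mlxipl the weeks separate, with little spread between replicates for Lipe and Dgat1 and a wider one for Mlxipl at Week 3.

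The lipid droplet proteins did not move in one direction. Plin1, the coat protein of the fat cell droplet, was at 1.87, 8.24 and 2.56 CPM at Week 1 and 0.458, 7.12 and 1.52 CPM at Week 3, lower in each pair but overlapping (log2 change -0.44 ± 1.06, adjusted p = 0.78, and -0.56 ± 0.25, adjusted p = 0.10 with the block). Without replicate 2 of both weeks it was called lower (log2 change -1.13, adjusted p = 0.0297, and -1.17, adjusted p = 0.00615 with the block). Cidec, which fuses droplets into large ones, was at 1.21, 5.98 and 2.16 CPM and then 0.458, 3.43 and 1.28 CPM. It stood at 37.9%, 57.3% and 59.3% of Week 1 in the pairs (log2 change -0.82 ± 0.83, adjusted p = 0.49, and -0.87 ± 0.20, adjusted p = 0.0066 with the block).

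Plin2, which coats droplets in most cell types, was at 54.5, 72.6 and 50.6 CPM at Week 1 and 46.1, 54.3 and 44.8 CPM at Week 3. The change was small, 74.8% to 88.7% of Week 1 (log2 change -0.29 ± 0.14, adjusted p = 0.14, and -0.28 ± 0.07, adjusted p = 0.0065 with the block). Plin4, a coat protein of small nascent droplets, went the other way, from 22.9, 55.1 and 30.9 CPM to 39.0, 78.3 and 46.7 CPM. It was 1.70-, 1.42- and 1.51-fold higher at Week 3 in the pairs, with overlap between weeks (log2 change 0.59 ± 0.44, adjusted p = 0.36, and 0.61 ± 0.07, adjusted p = 0.0001 with the block). Without the block the estimate ran from 0.24 (without Week 3 replicate 2) to 1.03 (without Week 1 replicate 2). In the paired fit Cidec and Plin2 thus fell while Plin4 rose.

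Of the lipolysis enzymes, Lipe fell and Pnpla2 was not called. Lipe, hormone-sensitive lipase, was at 33.5, 34.2 and 32.6 CPM at Week 1 and 21.9, 18.9 and 21.8 CPM at Week 3, with no overlap and little spread (log2 change -0.68 ± 0.08, adjusted p = 0.00017), and it was called in all 6 fits without 1 library. Replicate 2 was 1.04-fold and 0.865-fold the mean of the other libraries of its week. On the opposite strand the gene 4732471J01Rik overlaps 809 bases, or 25.1%, of the Lipe transcript. The library kit does not mark strand, so reads there cannot be told apart, and 4732471J01Rik was also lower, at 10.6, 10.6 and 9.45 CPM and then 6.41, 6.05 and 7.56 CPM (log2 change -0.62, adjusted p = 0.0038). Pnpla2, the lipase that starts triglyceride breakdown, was at 12.8 to 19.7 CPM and 12.4 to 14.2 CPM (log2 change -0.20 ± 0.16, adjusted p = 0.34), counted on a non-coding transcript of the gene.

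The genes of fatty acid supply and binding were all highest in replicate 2. Fabp4, the fatty acid carrier of fat cells, had a mean level of 81.3 CPM per kilobase of transcript at Week 1 and 37.6 CPM per kilobase at Week 3. It was at 24.7, 107 and 34.6 CPM in replicates 1, 2 and 3 of Week 1 and 11.2, 48.8 and 16.9 CPM in those of Week 3. The libraries differed up to 4.36-fold within a week, yet Week 3 stood at 45.2%, 45.6% and 48.8% of Week 1 in the pairs. The log2 change was -1.10 ± 0.86 (adjusted p = 0.38) without the block and -1.11 ± 0.07 (adjusted p = 2.1e-06) with it, and the weeks overlapped. Without the block the estimate ran from -1.98 (without Week 3 replicate 2) to -0.18 (without Week 1 replicate 2).

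Cd36, a fatty acid transporter also found on macrophages and endothelium, was at 16.3, 46.7 and 14.1 CPM at Week 1 and 4.84, 18.4 and 6.16 CPM at Week 3. Week 3 was lower in each pair, at 29.7%, 39.4% and 43.7% of Week 1, but replicate 2 of Week 3 overlapped Week 1 (log2 change -1.37 ± 0.78, adjusted p = 0.24, and -1.41 ± 0.11, adjusted p = 9.9e-06 with the block). Without the block the estimate ran from -2.23 (without Week 3 replicate 2) to -0.60 (without Week 1 replicate 2), and without both of these libraries Cd36 was called (log2 change -1.46, adjusted p = 1.17e-08). Acsl1, which activates long-chain fatty acids, fell from 68.4, 95.2 and 74.9 CPM to 55.2, 63.1 and 55.8 CPM, with no overlap (log2 change -0.45 ± 0.12, adjusted p = 0.019). Leaving out Week 3 replicate 1 ended the Acsl1 call (adjusted p = 0.0623), as did leaving out Week 3 replicate 3 (0.0615). Lpl, lipoprotein lipase, was at 34.7, 110 and 50.5 CPM and then 44.7, 116 and 54.5 CPM (log2 change 0.15 ± 0.62, adjusted p = 0.87, and 0.18 ± 0.07, adjusted p = 0.059 with the block). On replicates 1 and 3 with the block, a fit with few residual degrees of freedom, Lpl was called higher (log2 change 0.23, adjusted p = 0.0115). Without the block it was not called on those libraries (adjusted p = 0.601). Lpl thus shared the replicate 2 excess of Fabp4 and Cd36, while its Week 3 values lay above those of Week 1 in the pairs.

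The genes for entry of glucose, glycerol and water were near the detection limit. Aqp7, a channel for glycerol, had 4, 9 and 3 counts at Week 1 and 12, 21 and 12 at Week 3, with no overlap (log2 change 1.42 ± 0.43, adjusted p = 0.025). Leaving out Week 1 replicate 1 ended the call (adjusted p = 0.0917), as did leaving out Week 1 replicate 3 (0.091) and Week 3 replicate 2 (0.101), and DESeq2 gave an adjusted p of 0.082. Slc2a4, the insulin-responsive glucose transporter GLUT4, was at 0.181, 1.45 and 0.607 CPM and then 0.262, 1.61 and 0.732 CPM (log2 change 0.24 ± 0.76, adjusted p = 0.83).

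In fatty acid synthesis Acly and Me1 rose slightly and Scd1 rose in the paired fit. The mean levels per kilobase of transcript at Weeks 1 and 3 were 49.2 and 67.3 CPM for Scd1, 39.5 and 44.7 CPM for Me1 and 35.0 and 39.3 CPM for Acly. Scd1, which puts a double bond into fatty acids, was at 160, 354 and 199 CPM at Week 1 and 178, 552 and 246 CPM at Week 3. Replicate 2 was the highest in both weeks, and Week 3 was higher by 1.11-, 1.56- and 1.24-fold in the pairs (log2 change 0.45 ± 0.57, adjusted p = 0.59, and 0.37 ± 0.09, adjusted p = 0.012 with the block). Fasn, fatty acid synthase, was at 221, 178 and 205 CPM and then 210, 228 and 208 CPM, overlapping (log2 change 0.10 ± 0.08, adjusted p = 0.35).

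Acly, which makes acetyl-CoA from citrate, was at 159, 154 and 152 CPM at Week 1 and 166, 184 and 172 CPM at Week 3, higher in each pair with no overlap (log2 change 0.16 ± 0.06, adjusted p = 0.042). Me1, malic enzyme, which supplies NADPH, rose likewise from 134, 133 and 128 CPM to 150, 159 and 138 CPM (log2 change 0.18 ± 0.06, adjusted p = 0.044). Neither call was firm. Acly was not called in any of the 6 fits without 1 library (adjusted p 0.0514 to 0.119), and Me1 was not called when Week 1 replicate 1 (adjusted p = 0.0943) or replicate 3 (0.134), or Week 3 replicate 1 (0.113) or replicate 2 (0.132), was left out. DESeq2 gave adjusted p of 0.0724 for Acly and 0.07 for Me1. Neither Acaca, acetyl-CoA carboxylase, nor Elovl6, a fatty acid elongase, was called. Their log2 changes were 0.08 ± 0.09 (adjusted p = 0.53) and -0.12 ± 0.13 (adjusted p = 0.50). Thrsp, a protein that acts on lipid synthesis in liver and fat, had 1 to 5 counts in 5 libraries and 21 in Week 3 replicate 2, and was too low to test.

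Both enzymes of the last step of triglyceride synthesis fell. Dgat1 was at 42.0, 37.1 and 38.7 CPM at Week 1 and 27.9, 27.3 and 28.1 CPM at Week 3, with no overlap (log2 change -0.50 ± 0.07, adjusted p = 0.00059). Dgat2 fell from 41.0, 45.9 and 37.2 CPM to 31.1, 34.7 and 28.5 CPM, also with no overlap, at 75.9%, 75.6% and 76.6% of Week 1 in the pairs (log2 change -0.40 ± 0.10, adjusted p = 0.010). Both were called in all 6 fits without 1 library. Agpat2, which adds the second fatty acid, was at 7.96 to 8.83 CPM and 7.01 to 9.04 CPM (log2 change -0.06 ± 0.13, adjusted p = 0.73). Gpd1, which makes glycerol phosphate from a glycolysis intermediate, was at 1.75, 5.46 and 2.29 CPM and then 2.09, 4.71 and 2.50 CPM (log2 change -0.02 ± 0.49, adjusted p = 0.98); the opposite-strand gene Gm16537 overlaps 13.7% of its transcript. Pck1 had 2, 56 and 9 counts at Week 1 and 2, 37 and 11 at Week 3 (log2 change -0.48 ± 1.19, adjusted p = 0.78).

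Car3, carbonic anhydrase III, abundant in fat cells and slow muscle, was at 3.69, 27.4 and 14.1 CPM at Week 1 and 14.7, 65.2 and 19.6 CPM at Week 3. It was higher in each pair, by 3.97-, 2.38- and 1.39-fold, with overlap between weeks (log2 change 1.15 ± 0.94, adjusted p = 0.40, and 1.14 ± 0.26, adjusted p = 0.024 with the block). With the block but without replicate 2 of both weeks it was not called (log2 change 1.01, adjusted p = 0.39), and without the block the estimate ran from 0.18 (without Week 3 replicate 2) to 1.94 (without Week 1 replicate 2). Car3 thus shared the replicate 2 excess of Adipoq and Fabp4, while its Week 3 values lay above, not below, those of Week 1 in the pairs.

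**Figure D4:**
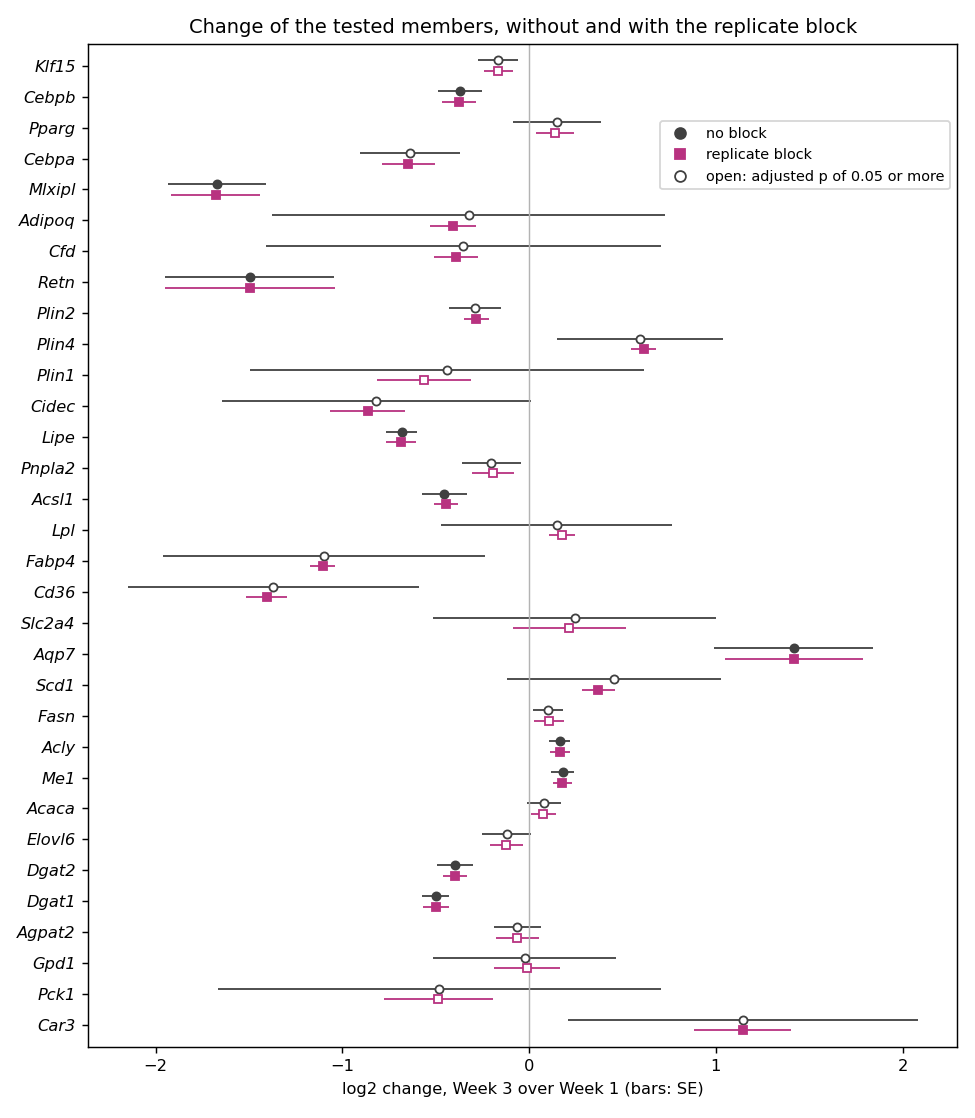
Log2 change from Week 1 to Week 3 with its SE for the 32 tested genes, without the block (circles) and with it (squares); filled symbols have an adjusted p under 0.05. The estimates of the fits lie close together, and the bars are shorter with the block for Adipoq, Cfd, Fabp4 and Cd36 and of like length for Retn, Lipe and Dgat1.

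Other genes of the same pathways moved in both directions. Their counts stand beside 19.7% of all genes that rose and 17.8% that fell, or 22.8% and 21.3% with the block. Of 16 adipogenic factors 3 rose and 2 fell (6 and 3 with the block): Klf4 rose 1.82-fold (adjusted p = 0.00014), Rxra, the partner of PPAR gamma, rose 1.28-fold (adjusted p = 0.0032), and Ppargc1a, a coactivator of mitochondrial genes, fell to 0.568 of its Week 1 level (adjusted p = 0.0026). Of 7 tested genes that restrain adipogenesis 2 rose and 2 fell. Dlk1, the preadipocyte factor, fell by 1.49 on the log2 scale, from 33.7, 32.0 and 32.5 CPM to 12.0, 13.3 and 9.70 CPM (adjusted p = 9.1e-06), while Klf2 rose 3.46-fold (adjusted p = 0.00012) and Foxo1 1.48-fold (adjusted p = 0.0002). In these lists the medians were 0.09 and 0.11 on the log2 scale, beside -0.01 for all genes.

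Of 13 further droplet and lipolysis genes 3 rose and 3 fell. G0s2, an inhibitor of the lipase encoded by Pnpla2, rose 1.40-fold (adjusted p = 0.0025) and Mgll, which releases the last fatty acid, 1.65-fold (adjusted p = 0.0031). Hilpda, a droplet protein induced by hypoxia that inhibits the same lipase, fell to 0.684 of its Week 1 level (adjusted p = 0.0029). Of 10 genes of fatty acid uptake and binding 2 rose and 4 fell: Vldlr, a lipoprotein receptor, rose 1.36-fold (adjusted p = 0.00021), Fabp3, the muscle fatty acid carrier, rose from 0.540 to 0.786 CPM to 1.96 to 3.21 CPM (adjusted p = 0.0013), and Slc27a1, a fatty acid transporter, fell to 0.705 of its Week 1 level (adjusted p = 0.0026). Gpihbp1, which anchors lipoprotein lipase to capillaries, had 0 counts in every library.

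Of 18 other genes of fatty acid and triglyceride synthesis 4 rose and 5 fell. Gpat4 and Gk, which act at the start of glycerolipid synthesis, fell to 0.746 (adjusted p = 0.00034) and 0.659 (adjusted p = 0.0031) of their Week 1 levels, and Fads2, a desaturase, rose 1.89-fold (adjusted p = 0.0050). Of 15 fatty acid oxidation genes 2 rose, Ehhadh and Slc25a20, and 0 fell, and neither was called without Week 1 replicate 1 or without Week 3 replicate 2; with the block 2 rose and 1, Cpt1a, fell. Of 4 tested brown fat and thermogenic genes 2 rose: Dio2, which activates thyroid hormone, rose 2.31-fold (adjusted p = 1.5e-05) and Cox8b was at 0.0605 to 0.290 CPM and then 0.981 to 1.04 CPM (adjusted p = 0.0019). Ucp1, the defining gene of brown fat, had 0 counts in every library. The median log2 changes of these lists were -0.02 for synthesis, -0.01 for oxidation and 0.68 for the 4 brown fat genes. Leaving out single libraries gave 2 to 4 adipogenic factors that rose and 1 to 3 that fell, 2 to 3 droplet and lipolysis genes that rose and 1 to 3 that fell, and 2 to 4 synthesis genes that rose and 2 to 5 that fell.

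Promoter methylation was measured for 21 of the 34 genes, as the mean level of CpG cytosines within 1000 bases of the start that had at least 10 reads in all 6 libraries, with at least 3 such sites. Most of the genes that define fat cells were among the 13 that were not measured: Adipoq, Fabp4, Plin1, Cidec and Cfd had 0 such sites, and Retn had too few. In the 300-base promoters of RefSeq, measured genes had a median of 19 CpGs (6 to 50, 15 genes) and genes not measured a median of 2 (0 to 7, 11 genes). In the measured windows 17 of 21 genes (81.0%, against 87.4% of all 13157 measured promoters) were under 10% methylated in both weeks, at 5.70% or less. These included Pparg, at 1.44% ± 1.54 and 0.349% ± 0.0708 (SD, n = 3), and Cebpa, at 0.457% ± 0.593 and 0.859% ± 1.13. Pparg had 2 transcripts, and its window lay at the start of the highest-count transcript only. No member promoter passed the quasi-binomial test, nor did any other promoter (0.0% called, lowest adjusted p = 0.806, 613 of 13157 with an unadjusted p under 0.05).

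**Figure D5:**
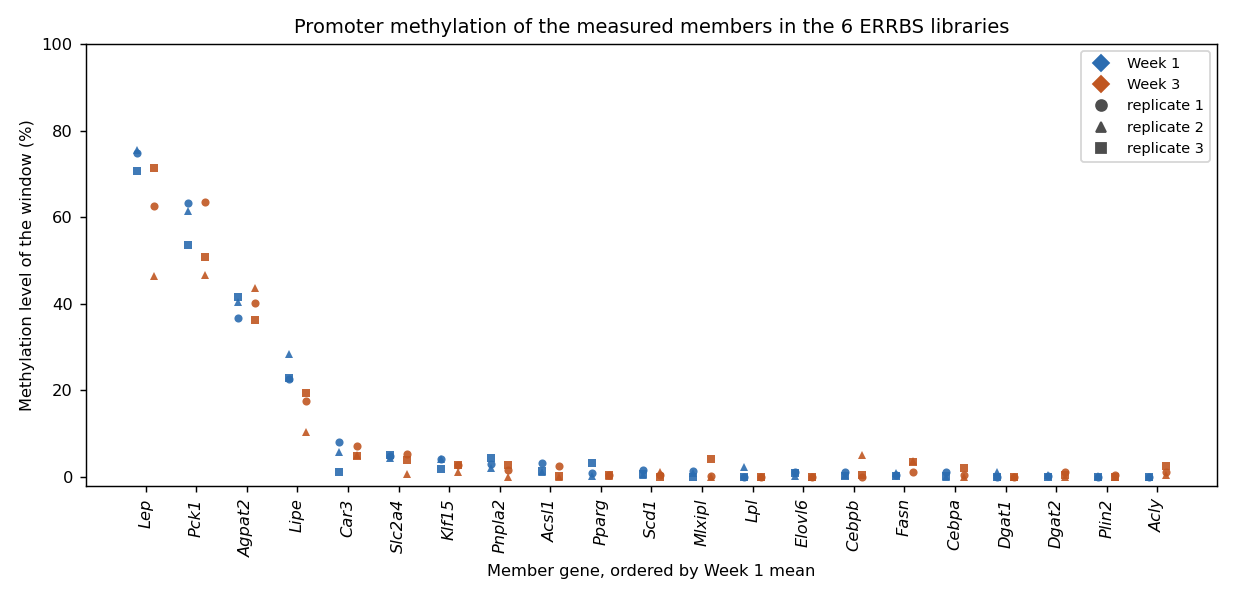
Methylation level (%) of the promoter window of the 21 measured genes in the 6 ERRBS libraries, by week (colour) and replicate (symbol), ordered by Week 1 mean. Lep, Pck1, Agpat2 and Lipe stand above 10%, the other 17 lie below it, and the lowest Lep and Lipe values are Week 3 replicate 2.

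The Lep promoter had the highest mean of the 21 in both weeks, though Pck1 was slightly above it in replicates 1 and 2 of Week 3. Over its 8 cytosines, 1 CpG being measured on both strands, the level was 74.9%, 75.5% and 70.7% in replicates 1, 2 and 3 of Week 1 and 62.5%, 46.4% and 71.4% in those of Week 3, with coverage of 11 to 106 reads. The means were 73.7% ± 2.59 and 60.1% ± 12.7, a difference of -13.6 points (adjusted p = 0.806), and -6.72 points without Week 3 replicate 2. The CpG inside the C/EBP-type match, 52 bases before the start, was 93.9% ± 3.19 methylated at Week 1 and 85.1% ± 13.5 at Week 3. The cytosines 106 and 84 bases before the start, singled out after their values had been seen, had means of 65.4% and 66.3% at Week 1 and 27.2% and 25.7% at Week 3, with 0.0% of 15 reads in Week 3 replicate 2 at both.

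The methylated cytosines of Lipe lie 373 to 534 bases before its start (minus strand, chr7:25396359-25396522), shown here with the 10 measured CpGs in capitals because each of these 10 cytosines had a lower mean at Week 3.
Lipe: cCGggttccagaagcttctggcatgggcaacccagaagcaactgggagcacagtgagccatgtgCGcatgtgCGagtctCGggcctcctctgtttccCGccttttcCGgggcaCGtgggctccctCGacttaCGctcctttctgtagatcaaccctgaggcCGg
The level over the 10 cytosines was 22.7%, 28.5% and 22.8% in replicates 1, 2 and 3 of Week 1 and 17.6%, 10.4% and 19.3% in those of Week 3, so the weeks did not overlap. The means were 24.7% ± 3.30 and 15.7% ± 4.73 (quasi-binomial test, unadjusted p = 0.0080, or 0.0785 with the replicate block, and adjusted p = 0.806), and without Week 3 replicate 2 the difference was -6.24 points. Single cytosines differed by -0.46 to -23.1 points, the largest at 534 bases before the start. Lipe RNA and the methylation upstream of Lipe were thus both lower at Week 3, the methylation difference not passing the adjusted threshold.

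Agpat2 and Pck1 were partly methylated in both weeks. In Agpat2 the mean was 39.5% ± 2.48 and 40.1% ± 3.68: the 7 cytosines nearest the start had means up to 24.8% and the 5 farthest ones 74.3% to 96.0%. Pck1 was at 59.4% ± 5.27 and 53.6% ± 8.79 over 3 cytosines. Acly, Fasn and Elovl6 had an unadjusted p under 0.05 without the replicate block (0.0589, 0.0819 and 0.0635 with it), with means of 0.0215% and 1.35%, 0.490% and 2.76%, and 0.680% and 0.0% at Weeks 1 and 3, all close to unmethylated.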

How the data were processed

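The RNA-seq tables that the authors deposited hold raw counts of reads on RefSeq transcripts. The submitters' processing notes name CASAVA 2.17, STAR, featureCounts, Bismark and the mm10 build. Other tool versions were not given in the sources used here, nor was the strand setting of the counting. For ERRBS the deposited files list, per the file headers, each cytosine's coverage and the percent of reads methylated, from 10 reads upward. A gene's value was the count of its highest-count transcript; 394 of 30048 accessions had no symbol and 1.53% of counts.

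Differential expression used edgeR 4.0.16 in R 4.3.3 (TMM, filterByExpr, robust quasi-likelihood F test, Benjamini-Hochberg over 14323 genes, threshold 0.05), with DESeq2 1.42.0 and limma-voom (limma 3.58.1) as alternatives. The block fit added the replicate number. The SE of a log2 change was not estimated directly but taken as the absolute log2 change divided by the square root of the F statistic. Same-numbered libraries of both weeks deviated together from their week's mean (correlations over genes 0.27, 0.39 and 0.20, and 0.25, 0.36 and 0.20 without the 34 genes). Between unlike numbers the correlations over all tested genes ran from -0.30 to 0.09. Deviations from a week's mean cancel out for each gene, so the values for unlike numbers follow in part from those for like numbers. Over the 32 tested members, Week 1 replicate 1 and Week 3 replicate 3 correlated at 0.66, above 0.42 for replicate 3 of both weeks. The numbers were taken to pair the libraries from these correlations only, as the labels state no pairing. Promoter methylation was tested with a quasi-binomial logistic model, dispersion not below 1. Scripts were tested on simulated data. Depth was 14361722 to 19774661 gene counts, and median ERRBS coverage 15 to 47 reads.

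The genes and gene lists were chosen with earlier results of these data known. Values per library are given for genes called in either fit, the defining fat cell genes and the 3 most abundant genes. Other lists name up to 3 called genes with the smallest adjusted p.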

Additional observations from a re-analysis of the deposited data

How the results depend on the processing

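Of the 32 tested genes, 3 were called higher and 7 lower, against 19.7% and 17.8% of all genes. On replicates 1 and 3 of each week 30 were tested, and without a filter on low counts 34. The number higher was 0 with DESeq2's Wald test, 6 with the replicate block, 6 with the block on replicates 1 and 3 of each week (added after the data had been seen), and 0 to 2 when single libraries were left out. The number lower was 8 with DESeq2's Wald test and 14 with the block. It was 14 with the block on replicates 1 and 3, and 11 on those replicates without a block. When single libraries were left out it was 5 to 7. Of all genes, 22.8% were higher and 21.3% lower with the block, and 22.0% and 20.2% on replicates 1 and 3 without a block. For the other alternatives the share of all genes was not counted. With the block, omitting replicate 2 of both weeks exchanged members: Car3 and Cfd were no longer called, and Lpl (higher) and Plin1 (lower) were. DESeq2 size factors and sums of transcripts changed no call. Without a filter on low counts Acly was no longer called (adjusted p = 0.0525). The block reversed no direction. Fasn was at -0.0245 on replicates 1 and 3 and -0.0232 with the block added, and Gpd1 at 0.0699 with limma-voom and 0.19 and 0.18 on replicates 1 and 3 without and with the block. No member promoter was called under any alternative. The blocked methylation fit has few residual degrees of freedom, and the blocked expression fit on replicates 1 and 3 has fewer still.

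When single libraries were left out without the block, genes that were not called changed sign, with log2 ranges of -1.62 to 0.68 for Adipoq, -2.08 to 0.51 for Plin1, -1.83 to 0.0935 for Cidec, -0.39 to 0.77 for Lpl, -0.13 to 0.35 for Pparg, -1.62 to 0.82 for Cfd, -0.16 to 0.86 for Scd1, -0.0154 to 0.16 for Acaca, -0.31 to 0.0186 for Pnpla2, -0.16 to 0.0237 for Agpat2, -0.47 to 0.64 for Gpd1, -0.58 to 1.21 for Slc2a4 and -1.71 to 1.44 for Pck1. Low counts limit Lep, Thrsp, Retn, Aqp7, Slc2a4 and Pck1.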
